A study of Homo sapiens with 18 samples.

Results

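Guanylate-binding proteins (GBPs) are large GTPases that cells make in response to interferons. Of the 5 genes GBP1 to GBP5, named by symbol, 4 were found among the 16472 rows of the expression table: GBP1 (ENSG00000117228), GBP3 (ENSG00000117226), GBP4 (ENSG00000162654) and GBP5 (ENSG00000154451). GBP2 was not analysed here. RNA sequencing was done on NIKS cells, a human keratinocyte cell line that is immortalized but otherwise normal and is grown over lethally irradiated J2/3T3 mouse fibroblasts. The 6 groups, each of 3 biological replicates, were cells wild type (WT) or knockout (KO) for SP100, a component of PML nuclear bodies, left untreated (0 h) or held for 12 or 48 h in 25 ng/mL human interferon alpha 2a, a type I interferon. All groups were kept in the same serum-containing medium with hydrocortisone, cholera toxin, epidermal growth factor and insulin, per the labels' protocols.

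Column names gave 1 line per genotype (Vec2 for WT and KO5 for KO), so SP100 genotype and any other difference between those lines cannot be told apart. No untreated library at 12 or 48 h was analysed, so hours in interferon and hours in culture likewise cannot be told apart. The labels do not say that replicates were grown independently beyond calling them biological, and p-values measure the spread between these samples. Values are RPKM, which scales reads by gene length and by library size, and errors are SD with n = 3 unless stated. The number of reads per library is unknown, and relative depth recovered from low values spanned 1.47-fold. Replicates of a group correlated across genes with a Pearson r of 0.985 to 0.989. SP100 mRNA was lower in KO than in WT at 0, 12 and 48 h, by log2 differences of -0.94, -0.83 and -1.08 (SE 0.059). The knockout line kept SP100 transcript, with means of 15.1 RPKM before interferon, 89.1 after 12 h and 59.8 after 48 h, beside 30.0 RPKM in WT before interferon, so its label does not stand for absence of the mRNA. All 10 keratinocyte markers were present, with a summed level of 20101 to 24857 RPKM. Of 8 fibroblast markers 2 had a row, with a summed level of 1.4 to 3.18 RPKM. Of the endothelial, leukocyte and melanocyte markers, 0 of 4, 2 of 6 (CD14 and CD68) and 2 of 4 had a row. The CD14 and CD68 sum was 19.6 to 25.3 RPKM at 0 h, 45.0 to 58.9 at 12 h and 35.9 to 43.2 at 48 h over both genotypes. The markers moved in opposite directions: at 12 h CD68 was called higher in WT and KO (log2 changes of 1.39 in WT and 1.605 in KO, limma adjusted p = 3.89e-10 and 5.12e-11), and CD14 was called lower (-0.84 and -1.34, limma adjusted p = 0.000792 and 8.69e-06). Their part in the results was not tested. In bulk RNA, fewer cells with a transcript and less of it per cell cannot be told apart.

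GBPs bind and hydrolyse GTP and assemble into coats on intracellular bacteria and on the vacuoles of pathogens. GBP1 binds the lipopolysaccharide of bacteria in the cytosol and begins the coat, GBP3 and GBP4 join it, and the coat recruits the lipopolysaccharide sensor caspase-4. GBP1 is anchored to membranes by farnesylation and GBP5 by geranylgeranylation, and GBP5 lowers the activity of furin, a protease that viruses use to mature their envelope proteins. Type I interferon signals through IFNAR1 and IFNAR2, the kinases JAK1 and TYK2, and a factor that contains STAT2 and IRF9 and binds interferon-stimulated response elements (ISREs). Gamma-activated sequences (GAS) are a further class of interferon-responsive element, and IRF1 also binds ISRE-like DNA at GBP promoters.

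The promoters of 3 members whose transcripts rose with interferon are shown so that the letters of these elements can be set beside the time courses. Sequences were taken from RefSeq (GRCh38.p14) for 3 of the 4 members found, and GBP5 was not matched. Each covers 250 bases before to 20 bases after the gene start on the minus strand, 5′ to 3′. Capitals mark an ISRE core, searched on both strands as GAAA, any 2 bases, GAAA (read on the other strand as TTTC, any 2 bases, TTTC), or a GAS, searched as TTC, any 3 bases, GAA, which reads alike on both strands.
GBP1, chr1:89065189-89065458: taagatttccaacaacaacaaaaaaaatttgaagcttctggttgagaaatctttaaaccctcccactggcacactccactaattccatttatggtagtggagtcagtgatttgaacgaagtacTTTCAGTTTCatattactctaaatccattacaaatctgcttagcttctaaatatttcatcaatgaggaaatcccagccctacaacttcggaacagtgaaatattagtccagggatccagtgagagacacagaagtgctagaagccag
GBP3, chr1:89022847-89023116: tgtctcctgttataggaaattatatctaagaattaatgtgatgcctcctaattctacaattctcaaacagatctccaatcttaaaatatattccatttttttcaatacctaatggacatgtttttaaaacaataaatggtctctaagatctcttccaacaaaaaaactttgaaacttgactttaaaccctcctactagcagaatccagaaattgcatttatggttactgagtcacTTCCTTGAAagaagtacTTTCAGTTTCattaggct
GBP4, chr1:89198923-89199192: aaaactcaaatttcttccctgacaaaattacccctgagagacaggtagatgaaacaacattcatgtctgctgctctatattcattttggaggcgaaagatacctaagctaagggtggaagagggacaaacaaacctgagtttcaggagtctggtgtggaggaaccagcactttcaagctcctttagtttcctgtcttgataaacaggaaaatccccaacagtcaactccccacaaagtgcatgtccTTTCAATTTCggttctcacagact

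Each of these 3 windows held a single ISRE core match, where 3.3% of 35116 RefSeq windows of the same length held at least 1. In GBP1 the match TTTCAGTTTC began 127 bases before the start, in GBP3 the same letters began 2 bases after it, and in GBP4 the match TTTCAATTTC began 4 bases before it. The GBP1 and GBP3 windows shared a run of 19 bases, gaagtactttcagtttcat, around their match, and no longer run. Of the 3 windows, that of GBP3 alone held a match to this GAS pattern, TTCCTTGAA. The match began 15 bases before the start and did not overlap the ISRE core, and 7.05% of all windows held one. A GAS whose letters depart from the pattern would be missed. The lack of a match in the GBP1 and GBP4 windows thus does not show that they lack a GAS. These matches describe letters and do not show binding.

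GBP1 and GBP3 were expressed before interferon, whereas GBP4 and GBP5 were at or near 0. Untreated WT libraries held 2.25, 2.67 and 2.13 RPKM of GBP1 and untreated KO libraries 2.06, 1.98 and 2.16 RPKM. The untreated WT libraries held 8.97, 7.57 and 8.33 RPKM of GBP3 and the untreated KO libraries 6.53, 8.59 and 6.89 RPKM. GBP3 was the higher of the pair in all 6 untreated libraries, and WT and KO values overlapped for both genes. GBP4 was listed at 0 in 5 of the 6 untreated libraries and at 0.01 RPKM in a KO library. GBP5 was likewise at 0 in 5 of 6, with 0.03 RPKM in a WT library. In the untreated groups the order by RPKM, a scale per length, was thus GBP3, GBP1, then GBP4 and GBP5, which did not differ beyond their spread.

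GBP1, the GTPase that binds lipopolysaccharide, had the largest rise in RPKM of the members at 12 h. At 12 h its level was 32.1, 35.3 and 32.5 RPKM in WT and 34.2, 32.3 and 32.3 RPKM in KO. Every 12 h library lay far above every untreated one, and the WT and KO values overlapped. The ratio of mean RPKM, 12 h over 0 h, was 14.2 in WT, and in KO it was 15.9. On the log2(RPKM + 1) scale, which understates changes of low genes, the rise was 3.36 in WT (SE 0.0715, limma adjusted p = 9.54e-16) and 3.47 in KO (limma adjusted p = 5.80e-16). Of the 13280 genes tested in WT, 50, GBP1 included, had a log2 change at 12 h of at least this size.

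GBP3, which joins the GBP1 coat, rose from its higher untreated level to about the level of GBP1. The 12 h libraries held 28.0, 29.4 and 31.1 RPKM in WT and 33.3, 28.1 and 25.2 RPKM in KO. All 6 values exceeded all untreated ones, and the KO values spread on both sides of the WT values. Mean GBP3 was 3.55 times its untreated level in WT and 3.93 times in KO. The log2 change was 1.71 in WT (SE 0.109, limma adjusted p = 4.28e-09) and 1.84 in KO (limma adjusted p = 1.65e-09).

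GBP4, another coat subunit, became detectable at 12 h in every library but stayed low. It was at 1.01, 1.34 and 1.75 RPKM in WT and at 1.78, 1.84 and 1.26 RPKM in KO. GBP4 reached the minimum of 1 RPKM that testing required in 6 libraries, which are the 12 h ones, so it could be tested only because it was high there. Its rise to 12 h and its fall after 12 h had to appear, and calls of either lend no support. Its log2 change was 1.23 in WT and 1.38 in KO (SE 0.147). GBP5 did not reach 1 RPKM in any library and was not tested in the main fit. Its 12 h values were 0.49, 0.43 and 0.30 RPKM in WT and 0.37, 0.26 and 0.27 RPKM in KO, all above every untreated value. With no filter on low values, the GBP5 log2 change at 12 h was 0.48 in WT (limma adjusted p = 0.000347) and 0.38 in KO (limma adjusted p = 0.00199). GBP1 and GBP3, which were at or above 1 RPKM in all 18 libraries, were both called higher at 12 h in WT and in KO, where 15.1% and 16.0% of all genes tested were called higher (21.8% and 23.7% after median-of-ratios scaling).

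**Figure D1:**
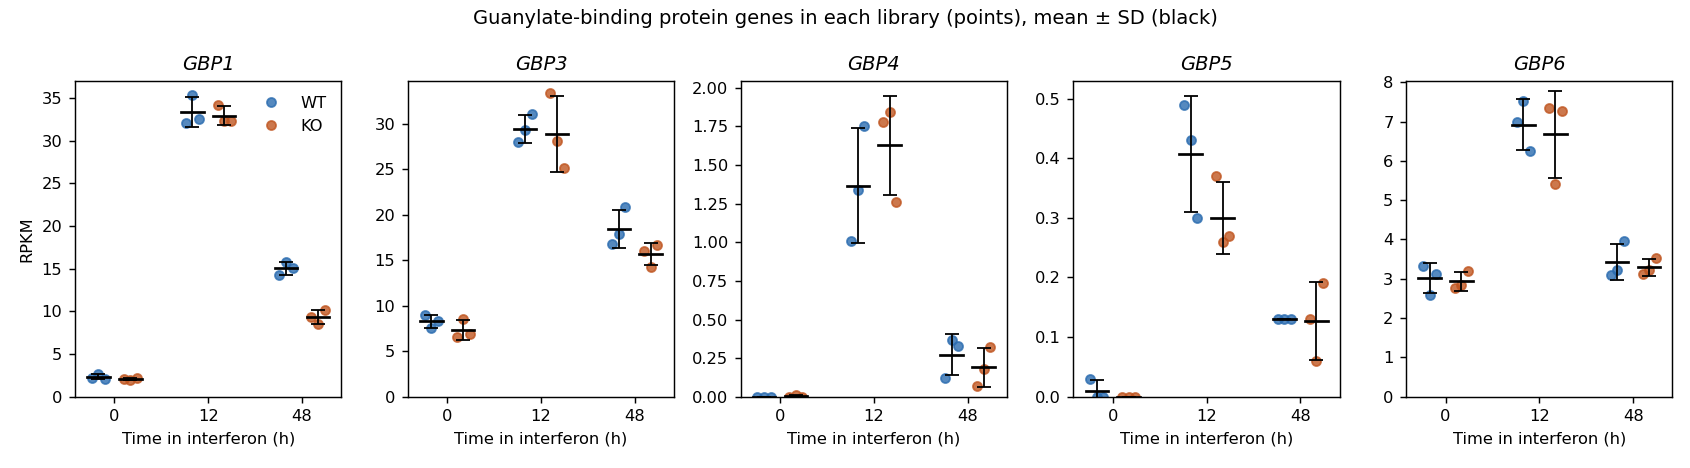
RPKM of GBP1, GBP3, GBP4, GBP5 and the related gene GBP6 (vertical axis, a separate linear scale for each gene) at 0, 12 and 48 h in interferon, with a point for each WT (blue) and KO (orange) library and the mean ± SD in black. GBP1 at 48 h was at 14.2 to 15.8 RPKM in WT and 8.55 to 10.2 RPKM in KO, while at 12 h the genotypes overlapped for all 5 genes.

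Between 12 and 48 h GBP1 and GBP3 fell in both genotypes. GBP1 was at 14.2, 15.8 and 15.1 RPKM in WT at 48 h and at 9.37, 8.55 and 10.2 RPKM in KO. These values lay between the untreated and the 12 h levels in each genotype, and every KO library lay below every WT library. The 48 h mean was 45.2% of the 12 h mean in WT and 28.5% in KO. The log2 change from 12 to 48 h was -1.10 in WT (SE 0.0715, limma adjusted p = 1.86e-08) and -1.71 in KO (limma adjusted p = 9.57e-11). Against untreated cells GBP1 was still higher at 48 h, by a log2 change of 2.26 in WT (limma adjusted p = 3.22e-13) and 1.76 in KO (limma adjusted p = 1.12e-11).

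GBP3 kept more of its 12 h level. It was at 16.7, 17.9 and 20.8 RPKM in WT at 48 h and at 16.1, 14.3 and 16.7 RPKM in KO. The highest KO library fell just under the lowest WT library, a gap smaller than the spread within either group. Its 48 h mean was 62.8% of the 12 h mean in WT and 54.4% in KO. The log2 change from 12 to 48 h was -0.65 in WT (SE 0.109, limma adjusted p = 0.000275) and -0.83 in KO (limma adjusted p = 2.12e-05). Against untreated cells GBP3 was higher at 48 h by 1.07 in WT (limma adjusted p = 3.54e-06) and 1.01 in KO (limma adjusted p = 7.30e-06).

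GBP4 and GBP5 were at most at 0.37 RPKM at 48 h. GBP4 was at 0.12, 0.37 and 0.33 RPKM in WT at 48 h and at 0.07, 0.18 and 0.32 RPKM in KO, with the genotypes overlapping. Its log2 change from 12 to 48 h was -0.89 in WT and -1.14 in KO, given as a description because GBP4 was tested only through its 12 h libraries. Against untreated cells GBP4 did not pass the test at 48 h in either genotype, with log2 changes of 0.34 in WT (limma adjusted p = 0.145) and 0.24 in KO (limma adjusted p = 0.324). With a pseudocount of 0.1 in place of 1, the WT value was 1.82 and did pass (limma adjusted p = 0.0221). GBP5 was at 0.13 RPKM in all 3 WT libraries at 48 h and at 0.13, 0.06 and 0.19 RPKM in KO. With no filter on low values, its fall from 12 h was -0.31 in WT (limma adjusted p = 0.0104) and its change in KO was -0.21 (limma adjusted p = 0.0712).

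GBP1 and GBP3 were both called lower at 48 h than at 12 h in each genotype, where 11.3% of genes in WT and 14.0% in KO were called lower (18.2% and 21.1% after median-of-ratios scaling). Both were also called higher than untreated at 48 h in each genotype, against a background of 6.52% in WT and 5.90% in KO. A fall after 12 h was common among induced genes. Of the 218 genes at least 2-fold higher at 12 h in WT on the log2(RPKM + 1) scale, 167 (76.6%) were called lower at 48 h than at 12 h, and of 233 such genes in KO, 183 (78.5%) were. Counting genes of these sets that fell at least as far, GBP1 was among 40 in WT and 14 in KO, and GBP3 among 107 and 95. The sets were chosen through the 12 h libraries, from which the change to 48 h was also measured, so a fall was favoured. They include genes such as GBP4 that reached 1 RPKM only at 12 h. These shares and ranks are given as a description.

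Whether members fell by different amounts was tested within libraries, as the difference between their log2 values at 48 h against that at 12 h, with time labels permuted within genotype. GBP1 fell further than GBP3 by 0.66 on the log2 scale averaged over genotypes, with differences of -0.45 for WT and -0.88 for KO (two-sided exact permutation p = 0.005, the smallest that 400 assignments allow, adjusted p = 0.0075 over 6 pairs). The other 5 pairs involve GBP4 or GBP5, and 2 of them changed direction with the pseudocount. GBP1 minus GBP4 was -0.39 with a pseudocount of 1 and 0.86 with 0.1, and GBP3 minus GBP5 was -0.48 and 0.21. GBP1 minus GBP5 was -1.14 with a pseudocount of 1 and -0.49 with 0.1 (adjusted exact permutation p = 0.054). With at most 0.49 RPKM, GBP5 had room for only a small fall with a pseudocount of 1, so the value of -1.14 lends no support. The 48 h mean of GBP5 was 32.0% of its 12 h mean in WT and 42.2% in KO, beside 45.2% and 28.5% for GBP1. GBP3 minus GBP4 was 0.27 with a pseudocount of 1 and 1.56 with 0.1. These values are given as a description, because GBP4 reached 1 RPKM only at 12 h and was near 0 at 48 h. GBP4 minus GBP5 was -0.75 with a pseudocount of 1 and -1.35 with 0.1, likewise as a description. How far GBP1 fell relative to GBP4, and GBP3 relative to GBP5, thus turned with the scale.

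The make-up of the summed RPKM of the 4 members found shifted with time. GBP2 and GBP6 are outside this sum, and untreated GBP6 was at 3.02 RPKM in WT and 2.94 in KO, above GBP1 at 2.35 and 2.07. In WT the 4 members summed to 10.7 ± 0.531 RPKM untreated, 64.5 ± 2.63 after 12 h and 33.9 ± 2.6 after 48 h. In KO the sums were 9.41 ± 1.04, 63.7 ± 5.42 and 25.4 ± 2.19. GBP1 made up 22.2% ± 3.41 of the sum in WT before interferon, 51.6% ± 1.86 of it after 12 h and 44.4% ± 2.5 after 48 h. In KO the GBP1 share was 22.2% ± 3.01, 51.8% ± 2.86 and 36.9% ± 0.343. GBP3 held most of the rest, with 77.8%, 45.6% and 54.4% in WT and 77.8%, 45.2% and 61.8% in KO. At 12 h the order by RPKM ran GBP1, GBP3, GBP4 and GBP5 by group mean, with GBP1 and GBP3 overlapping in KO. At 48 h GBP3 was highest in both genotypes, above every GBP1 value of the same genotype, and GBP4 and GBP5 overlapped.

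**Figure D2:**
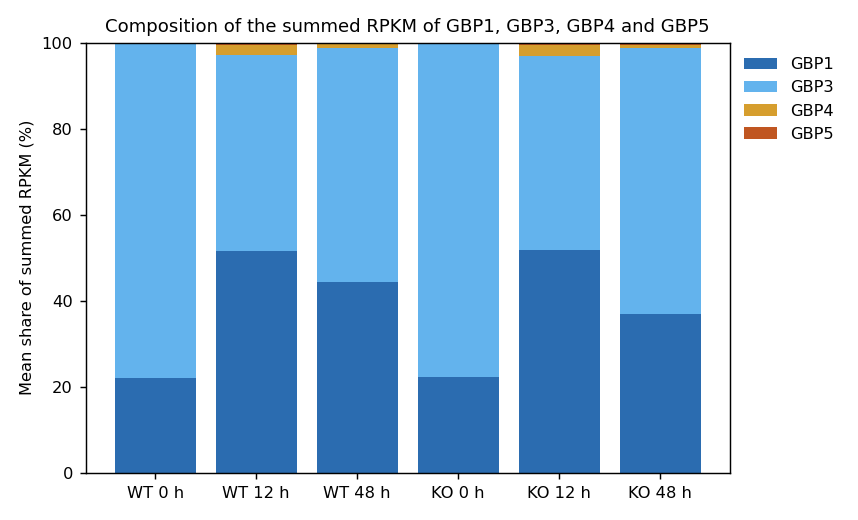
Mean share (percent, vertical axis) of the summed RPKM of 4 members that GBP1, GBP3, GBP4 and GBP5 held in each of the 6 groups (horizontal axis), as stacked bars of means over 3 libraries. The GBP1 share was 22.2% in both untreated groups, above 51% in both 12 h groups, and 44.4% in WT against 36.9% in KO at 48 h.

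KO and WT cells differed in 1 member at 1 time. GBP1 at 48 h was 15.1 ± 0.793 RPKM in WT and 9.38 ± 0.830 RPKM in KO, so that the KO mean was 62.3% of the WT mean. The log2 difference was -0.63 (SE 0.0715, 95% interval -0.783 to -0.479, limma adjusted p = 4.68e-05), and it stayed past the threshold in each of 25 alternatives, with adjusted p from 2.55e-05 to 0.0114. Genes called lower in KO at 48 h were 2.16% of those tested, and genes called in either direction 4.19%. GBP3 at 48 h was 18.5 ± 2.09 RPKM in WT and 15.7 ± 1.25 RPKM in KO, a log2 difference of -0.22 with a 95% interval of -0.453 to 0.0111 that did not pass (limma adjusted p = 0.338). The GBP4 difference at 48 h was -0.10 (limma adjusted p = 0.815).

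Before interferon and at 12 h, limma called 0 of 3 members different between genotypes, and 0 of 3 had an unadjusted p under 0.05 at either time. One of the members, GBP4, was at 0 in every untreated WT library, so a lower level in KO could not have appeared at 0 h. Genes called in either direction were 4.89% at 0 h and 3.62% at 12 h. GBP1 in KO was 87.9% of WT at 0 h, a log2 difference of -0.12 with a 95% interval of -0.276 to 0.0273. At 12 h it was 98.9% of WT, a log2 difference of -0.02 with an interval of -0.167 to 0.137. GBP3 differed by -0.16 at 0 h (limma adjusted p = 0.479) and -0.04 at 12 h (limma adjusted p = 0.915), and GBP4 by 0.15 at 12 h (limma adjusted p = 0.654).

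The difference between genotypes in the response itself did not pass for any member. The interferon response of GBP1 at 48 h was smaller in KO by -0.51 on the log2 scale (SE 0.101, unadjusted p = 0.000138, limma adjusted p = 0.111). Without WT 0 h replicate 2, the untreated WT library with the highest GBP1 value, it was -0.57 and passed (limma adjusted p = 0.0365), while the other alternatives gave adjusted p up to 0.462. The change of GBP1 from 12 to 48 h differed between genotypes by -0.62 (SE 0.101, 95% interval -0.831 to -0.401, unadjusted p = 1.73e-05, limma adjusted p = 0.107), and the adjusted p ranged from 0.0834 to 0.462 over alternatives. By unadjusted p, GBP1 ranked 1 of 13280 genes in that comparison, in which limma called 0 genes, 0% of those tested, and 904 genes had an unadjusted p under 0.05. For the interaction at 12 h, limma called 0.0753% of all genes and 0 of 3 members, 0 of which had an unadjusted p under 0.05. At 48 h it called 0.0828% of all genes and 0 of 3 members, 1 of which, GBP1, had such a p. For GBP3 the interactions were 0.13 at 12 h, -0.06 at 48 h and -0.18 from 12 to 48 h, with limma adjusted p of 0.980, 0.967 and 0.858.

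**Figure D3:**
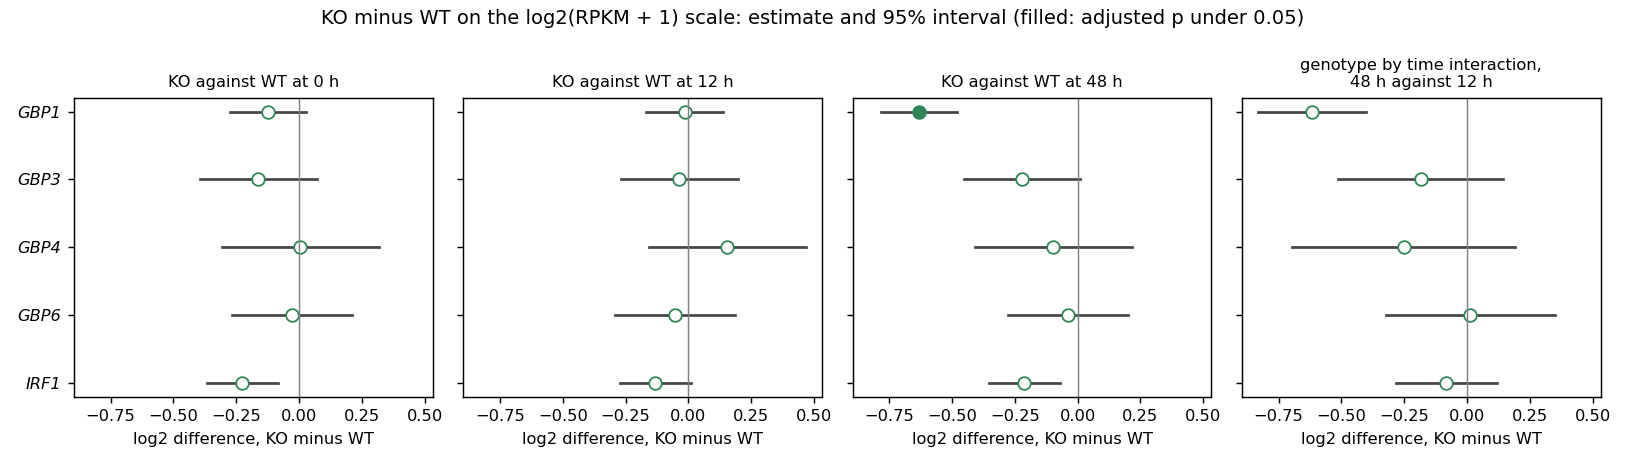
Differences KO minus WT on the log2(RPKM + 1) scale (horizontal axis) for 4 GBP genes and IRF1 (rows) at 0, 12 and 48 h, and in the right panel the difference between genotypes in the change from 12 to 48 h; points are limma estimates, lines 95% intervals, and filled points have an adjusted p under 0.05. GBP1 stood at -0.63 at 48 h, the only filled point, and no point in the right panel is filled.

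GBP6, a family member outside the 4, served as a comparison within the gene cluster. Its WT level was 3.02 ± 0.373 RPKM untreated, 6.92 ± 0.643 RPKM at 12 h and 3.42 ± 0.461 RPKM at 48 h. The KO values were 2.94 ± 0.240, 6.67 ± 1.10 and 3.29 ± 0.210 RPKM. GBP6 rose at 12 h by 0.98 in WT (limma adjusted p = 4.28e-06) and 0.95 in KO (limma adjusted p = 4.65e-06) and fell by 0.84 and 0.83 from 12 to 48 h (limma adjusted p = 3.35e-05 and 2.92e-05). At 48 h it did not pass against untreated cells, with 0.14 in WT and 0.13 in KO, and KO was 96.2% of WT. The GBP6 promoter window of the same length, on the plus strand, held no match to either pattern. The pseudogene GBP1P1 was at most at 0.52 RPKM. In GENCODE release 29 transcripts, 3.4% of the 50-base stretches of GBP1 also occurred in GBP3 and 6.6% in GBP1P1, so a small part of the reads could have been assigned to either, and GBP4, GBP5 and GBP6 shared 0 with the others.

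The signalling genes upstream of GBP promoters were followed from a list of 6 receptor, kinase and signal transducer genes. At 12 h in WT 3 of 6 were higher (STAT2, IRF9 and JAK1) and 1 lower (IFNAR2). In KO the same 3 were higher and 2 lower (IFNAR1 and IFNAR2). Limma called 15.1% of all genes higher and 29.8% lower in WT, and 16.0% and 32.8% in KO. After median-of-ratios scaling TYK2 also passed as higher in WT, and IFNAR1 did not pass in KO (-0.11, limma adjusted p = 0.276). The list median was 0.22 in WT and 0.25 in KO, beside medians over all genes of -0.09 and -0.09. STAT2 was at 10.8, 58.5 and 42.6 RPKM in WT and at 10.5, 57.5 and 41.4 RPKM in KO at 0, 12 and 48 h. Its change from 12 to 48 h was -0.45 in WT (limma adjusted p = 0.000129) and -0.46 in KO (limma adjusted p = 6.71e-05), beside -1.10 and -1.71 for GBP1. IRF9 did not pass from 12 to 48 h, with 0.01 in WT and -0.12 in KO. Between genotypes, IRF9 was lower in KO at 0 h (log2 difference -0.53, limma adjusted p = 0.0109). Limma called 0 of 6 at 12 h, where 2 had an unadjusted p under 0.05, and 0 of 6 at 48 h, where 0 had. Over all genes, 4.89%, 3.62% and 4.19% were called in either direction at 0, 12 and 48 h. The counts between genotypes are thus not read as a result about the list.

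Among 4 genes of the interferon gamma receptor and GAS arm, IRF1 was the 1 called higher at 12 h in each genotype, and the receptor gene IFNGR2 was called lower in both (-0.51 and -0.41, limma adjusted p = 1.42e-07 and 1.24e-06). The other receptor gene, IFNGR1, was called lower at 12 h in KO (-0.28, limma adjusted p = 0.00119) and not in WT (-0.12, limma adjusted p = 0.114). Over all genes tested at 12 h, 15.1% were called higher and 29.8% lower in WT, and 16.0% and 32.8% in KO. The counts in this list are thus not read as a result about it. IFNGR1 was higher in KO than in WT at 0 h (0.22, limma adjusted p = 0.0421), which did not pass after median-of-ratios scaling (0.20, limma adjusted p = 0.0643). The WT level of IRF1 was 9.73 ± 0.561 RPKM untreated, 24.6 ± 0.879 at 12 h and 15.2 ± 0.725 at 48 h. Its KO level was 8.19 ± 0.757, 22.4 ± 0.741 and 13.0 ± 0.925 RPKM. IRF1 fell from 12 to 48 h by 0.66 in WT (limma adjusted p = 2.28e-06) and 0.74 in KO (limma adjusted p = 4.90e-07). KO minus WT was -0.23, -0.13 and -0.21 at 0, 12 and 48 h, none past the threshold, with limma adjusted p of 0.0667, 0.339 and 0.0951, although after median-of-ratios scaling the 0 h difference did pass (-0.24, limma adjusted p = 0.0474). Of 4 negative regulators tested, 1 was called higher and 1 lower at 12 h in each genotype, beside the 12 h shares over all genes above. The lower one was PTPN6, from 19.0 to 14.5 RPKM in WT and from 17.4 to 12.0 RPKM in KO. USP18, which blocks signalling at the receptor, was the higher one, by 5.07 in WT and 4.84 in KO. It fell by 0.99 and 1.14 from 12 to 48 h. USP18 was higher in KO than in WT at 0 h (log2 difference 0.32, limma adjusted p = 0.000629). It was 1 of the 11 genes called for the genotype by interferon interaction at 48 h, with a smaller response in KO (-0.38, limma adjusted p = 0.0426), and it did not pass there after median-of-ratios scaling (limma adjusted p = 0.0608).

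**Figure D4:**
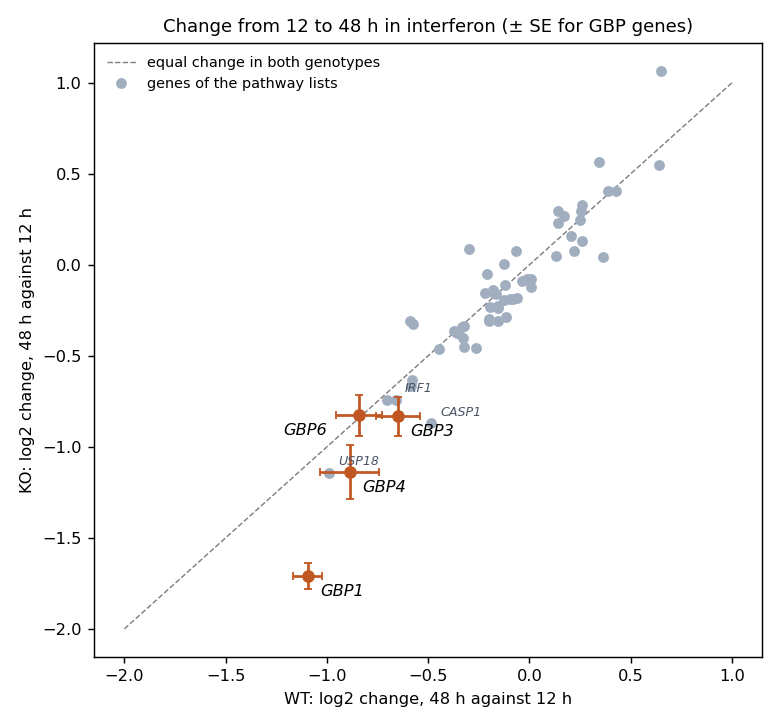
Log2 change from 12 to 48 h in WT (horizontal axis) against that in KO (vertical axis) for GBP1, GBP3, GBP4 and GBP6 (orange, ± SE) and the genes of the pathway lists (grey), with a dashed line of equal change. GBP1 lies at -1.10 in WT and -1.71 in KO, lower on the vertical axis than the other points drawn.

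Transcripts of the proteins that GBP coats act through rose in part. Of 9 inflammasome and pyroptosis genes tested, 5 were called higher at 12 h in both genotypes (CASP1, CASP4, GSDMD, AIM2 and NLRP3) and 2 lower (IL1B and IL18), where limma called 15.1% of all genes higher and 29.8% lower in WT and 16.0% and 32.8% in KO. AIM2 reached 1 RPKM only in the 6 libraries at 12 h, so its call lends no support. The list median was 0.43 in WT and 0.38 in KO, beside medians over all genes of -0.09 and -0.09. CASP4, the sensor recruited to GBP coats, was at 44.7 ± 1.66, 64.8 ± 2.49 and 51.3 ± 2.05 RPKM in WT at 0, 12 and 48 h. Its KO values were 42.2 ± 0.459, 61.5 ± 3.62 and 48.3 ± 1.77 RPKM. CASP1, the caspase of canonical inflammasomes, was at 32.9 ± 0.735, 80.7 ± 6.16 and 57.4 ± 4.89 RPKM in WT and at 29.7 ± 2.02, 84.9 ± 3.54 and 46.0 ± 1.36 RPKM in KO. At 48 h CASP1 was lower in KO by a log2 difference of -0.31 (limma adjusted p = 0.0104). GSDMD, the pore-forming substrate of these caspases, was lower in KO at 12 h, with 7.57 ± 0.349 against 11.7 ± 1.52 RPKM (log2 difference -0.56, limma adjusted p = 0.00740). The cytokine IL1B was higher in KO at 0 h by 0.31 and at 48 h by 0.25 (limma adjusted p = 0.0110 and 0.0447), of which the 48 h difference did not pass after median-of-ratios scaling (0.24, limma adjusted p = 0.0611).

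Genes whose products modify or hold GBP proteins changed by at most 0.79 on the log2 scale, the size of the fall of PIM1 at 12 h in WT. Of 6 prenylation and CaaX-processing genes, limma called 4 higher and 1 lower in WT at 12 h, and in KO 3 and 1, beside the shares over all genes of 15.1% higher and 29.8% lower in WT and 16.0% and 32.8% in KO. The protease ZMPSTE24 rose by 0.47 in WT and 0.52 in KO, and FNTA, the alpha subunit of farnesyltransferase, fell by 0.21 and 0.29; after median-of-ratios scaling the FNTA change in WT did not pass (-0.12, limma adjusted p = 0.158). Between genotypes limma called 0 of these 6 at each of 0, 12 and 48 h, with 0, 2 and 1 at an unadjusted p under 0.05. The shares of all genes called in either direction were 4.89%, 3.62% and 4.19%, so these counts are not read as a result about the list. PIM1, the kinase that phosphorylates GBP1, and the 14-3-3 genes that bind the phosphorylated protein made a list of 8. Limma called 3 higher and 1 lower in WT at 12 h (5 and 1 after median-of-ratios scaling). In KO it called 4 and 1, beside the same 12 h shares over all genes. PIM1 was the lower one, from 14.4 ± 0.621 to 7.93 ± 0.352 RPKM in WT and from 13.4 ± 2.30 to 10.0 ± 1.25 RPKM in KO. SFN, the 14-3-3 sigma gene of epithelia, rose by 0.27 in WT and 0.40 in KO, and it was lower in KO than WT at 0 h (-0.27, limma adjusted p = 0.00622) and 48 h (-0.22, limma adjusted p = 0.0274). Of 4 furin and proprotein convertase genes, limma called 2 higher in WT at 12 h (FURIN and PCSK7) and 3 in KO (with PCSK5), and 0 lower in either. After median-of-ratios scaling 3 were higher in WT. The shares of all genes called higher were 15.1% in WT and 16.0% in KO. FURIN, whose product GBP5 restrains, rose at 12 h by 0.22 in WT and 0.21 in KO (limma adjusted p = 0.0146 and 0.0174). PCSK7 went from 14.3 to 19.4 RPKM in WT and from 12.9 to 19.3 RPKM in KO.

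Among 7 other large GTPases tested, 4 were higher at 12 h in both genotypes (MX1, MX2, EHD4 and ATL2), beside 15.1% of all genes in WT and 16.0% in KO, and after median-of-ratios scaling 6 were higher in WT and 5 in KO, beside 21.8% and 23.7%. MX1 and MX2 reached 1 RPKM only in the 12 libraries with interferon, so their calls at 12 h lend no support. The antiviral GTPase MX1 was higher in KO than in WT at 12 and 48 h. MX1 was at 580.2 ± 7.18 RPKM in WT and 807.8 ± 3.97 in KO at 12 h, and at 356.3 ± 8.09 and 482.5 ± 4.22 RPKM at 48 h, log2 differences of 0.48 and 0.44 (limma adjusted p = 7.16e-06 and 1.73e-05).

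The genes whose log2(RPKM + 1) followed each member most closely over the 18 libraries were listed by Pearson r, as a description; all libraries share the interferon time course. For GBP1 they were SPATS2L (r = 0.994), NT5E (0.993) and PLEKHA4 (0.992). PLEKHA4 was at 3.73, 23.2 and 11.3 RPKM in WT and at 3.12, 22.2 and 9.12 RPKM in KO at 0, 12 and 48 h. For GBP3 they were GBP1 (0.985), TLR3 (0.982), the receptor for double-stranded RNA, and STARD5 (0.981). TLR3 was at 1.09, 8.45 and 5.13 RPKM in WT and at 1.18, 7.11 and 3.51 RPKM in KO. For GBP4 they were NOP9 (0.978), P4HA1 (0.978) and the chemokine gene CXCL10 (0.973), which was at 0.223, 140.7 and 2.28 RPKM in WT. For GBP5 they were TENT5A (0.953), CD164 (0.952) and the peptide-trimming aminopeptidase ERAP2 (0.950).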

How the data were processed

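RNA was measured in 18 NIKS libraries, made as stranded mRNA libraries per the labels' protocols. The authors deposited 1 table of RPKM values with 16472 Ensembl rows. The submitters' processing notes name cutadapt, STAR 2.6.1, RSEM 1.3.0, limma 3.50.3 and hg19, without roles; the annotation and gene filter are not given in the sources used here. Symbols matched 15666 rows.

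RPKM are not counts, so log2(RPKM + 1) was fitted with limma 3.58.1 (R 4.3.3, trended variances) in a cell-means model of 6 groups. Genes with at least 1 RPKM in at least 3 libraries were tested (13280), with Benjamini-Hochberg adjustment per comparison over all of them and a threshold of 0.05. The model was tested on simulated data. Comparisons were interferon against 0 h, 48 h against 12 h, KO against WT, and their interactions. Pairs of members were compared by exact permutation.

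Named genes were the members, SP100, and genes of the pathway lists by count, with values for those past the threshold or of a defining role, and each member's 3 nearest genes by correlation. A list gene is not reported here. Members and lists were chosen with earlier results of these data known. Alternatives were a pseudocount of 0.1, no filter, a mean of at least 5 RPKM, scaling by medians of ratios, models of the compared libraries alone, no variance trend, a replicate block, and each library left out.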

Additional observations from a re-analysis of the deposited data

How the results depend on the processing

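GBP1 kept its calls in all 25 alternatives for each interferon comparison, the change from 12 to 48 h, and KO against WT at 48 h, where the log2 difference ranged from -0.69 to -0.57. The number of members called for the interaction at 48 h ranged from 0 to 1 as single libraries were left out, and the 1 came without WT 0 h replicate 2. Leaving out single libraries turned the sign of 3 differences that were near 0 and past no threshold. For KO against WT at 12 h, GBP1 ranged from -0.041 to 0.026 and GBP3 from -0.14 to 0.055 (0.0016 without WT 12 h replicate 3). The GBP3 interaction at 48 h ranged from -0.13 to 0.046 (0.024 without WT 48 h replicate 3, 0.0023 without KO 48 h replicate 2). A pseudocount of 0.1 turned GBP1 minus GBP4 to 0.86 and GBP3 minus GBP5 to 0.21. In RPKM, with no pseudocount, the 48 h mean of GBP4 was 20% of its 12 h mean in WT and 11.7% in KO. For GBP1 these shares were 45.2% and 28.5%, for GBP3 62.8% and 54.4%, and for GBP5 32.0% and 42.2%. The cause of the turn was not tested. A mean of at least 5 RPKM removed GBP4 and GBP5, which have no value there. Median-of-ratios scaling removed a shift over all genes of -0.09 at 12 h in WT and -0.10 in KO. It moved the share of calls that were higher from 33.6% to 51.6% at 12 h in WT, from 32.7% to 50.9% in KO, from 68.5% to 46.9% for 48 h against 12 h in WT, from 66.4% to 47.5% in KO, and from 57.7% to 46.9% for KO against WT at 0 h. Deviations of same-numbered samples correlated by -0.0972 to 0.157, and in 0 of 15 pairs of groups were all correlations over 0.1. The labels do not say whether equal replicate numbers mark a shared culture or day. With the replicate block the numbers of members called were the same in each comparison, and GBP1 in KO against WT at 48 h was -0.63 (adjusted p = 0.000226). Read totals are unknown, so no counting interval is given for the low values of GBP4 and GBP5.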

Other observations

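Genes beside the GBP cluster on chromosome 1 moved in both directions with interferon. Of 8 such genes tested, limma called 2 higher (ZNF326 and LRRC8D) and 3 lower (PKN2, KYAT3 and LRRC8B) in WT at 12 h, and in KO 4 higher and 3 lower, with list medians of 0.03 and 0.12 beside -0.09 and -0.09 over all genes. Over all genes tested, 15.1% were called higher and 29.8% lower in WT and 16.0% and 32.8% in KO, so these counts are not read as a result about the neighbours. After median-of-ratios scaling, the WT counts were 3 higher and 2 lower. ZNF326, a zinc finger gene, rose by 0.41 in WT and 0.44 in KO at 12 h (limma adjusted p = 0.000555 and 0.000229) and fell by 0.32 and 0.34 from 12 to 48 h (limma adjusted p = 0.00434 and 0.00282). LRRC8B, a subunit of a volume-regulated anion channel, fell at 12 h by 0.35 in WT and 0.44 in KO (limma adjusted p = 0.0129 and 0.00243). At 48 h against 0 h, 0 of the 8 were called in WT, where 3 had an unadjusted p under 0.05, and 1, RBMXL1, was called higher in KO. Over all genes, 6.52% were called higher at 48 h in WT and 5.90% in KO. Between genotypes, LRRC8B was higher in KO at 0 h by 0.42 (limma adjusted p = 0.0292), and limma called 0 of 8 at 12 h and 0 of 8 at 48 h, with 1 and 2 at an unadjusted p under 0.05. Over all genes, 4.89%, 3.62% and 4.19% were called in either direction at 0, 12 and 48 h. The counts at 48 h and between genotypes are likewise not read as a result about the neighbours.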
